A study of Homo sapiens with 6 samples.

Results

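The cytosolic ribosomal protein genes were read from arrays of HCT116, an established human colon cancer cell line, after siRNAs directed at the long noncoding RNA H19. They were taken as transcript clusters, the array's gene-level rows, annotated with 1 symbol that begins with RPL or RPS and a number (an A, X or L may follow), together with RPSA and the P-stalk genes RPLP0, RPLP1 and RPLP2 where these had such a row. The kinases of the RPS6K family, RPS27L, the RPS4Y genes and pseudogenes were left out, and the row of highest mean signal was kept for each gene. This gave 50 genes out of 22465 with a cluster of 1 symbol, 30 of the large and 20 of the small ribosomal subunit, from 57 rows. A further 22 rows paired a ribosomal protein symbol with other symbols, a small nucleolar RNA in 20 of them, and were not counted as members. RPL5, RPLP0 and RPLP2 were not analysed here.

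The 6 arrays formed 3 groups of 2: a control siRNA, written si(-) in the labels, siH19-1 and siH19-2. All cells received siRNA at 50 nM with Lipofectamine RNAiMAX and were collected at 48 h, so lipid and siRNA exposure were shared by every group, and the labels number the replicates as biological. The cluster annotated to both MIR675 and H19 was not lower in the siH19 arrays. Its log2 signal was 4.82 and 5.02 in the control arrays, 4.90 and 4.99 with siH19-1, and 4.95 and 5.02 with siH19-2. In the control arrays too it lay near the log2 value of 5 used as the detection filter, where a fall may not show. Knockdown of H19 therefore cannot be judged from this row, and directions below rest on the labels of the arrays. The epithelial genes EPCAM (11.09 to 11.37) and KRT8 (13.31 to 14.11) had high log2 signals in all 6 arrays, CDH1 ranged from 6.62 to 9.92, and the intestinal factor CDX2 stayed under the detection filter (3.75 to 4.05). Of 7 markers of other cell types with a row, 6 were under the filter in these arrays and COL1A1 lay at 4.75 to 5.28. In bulk RNA, a smaller share of cells and less RNA per cell cannot be told apart.

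A ribosome joins a small subunit, which reads the mRNA, to a large subunit, which forms the peptide bond and holds the exit tunnel of the growing chain. Each subunit is built on ribosomal RNA from many proteins, nearly all of them present in a single copy per ribosome, so their genes are expressed together and strongly in dividing cells. Their mRNAs begin with a C and a run of pyrimidines, the 5′ terminal oligopyrimidine (TOP) motif, through which mTOR and the RNA-binding protein LARP1 control translation. Ribosomal proteins that are not built into ribosomes, RPL11 in a complex with 5S RNA above all, can bind MDM2 and stabilise p53, which is intact in HCT116.

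The start of the gene shows the motif that the family shares, and it is printed here for those called members, described further on, that had an entry in the promoter table. Each line gives 30 bases before the annotated start and 20 from it on, on the coding strand of GRCh38.p14 from RefSeq, and capitals mark the pyrimidine run that begins with C at the start.
RPS19 (chr19:41860225-41860274, plus strand): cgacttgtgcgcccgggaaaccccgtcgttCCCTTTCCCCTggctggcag
RPS3 (chr11:75399488-75399537, plus strand): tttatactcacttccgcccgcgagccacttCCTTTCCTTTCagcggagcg
RPS6 (chr9:19380217-19380266, minus strand): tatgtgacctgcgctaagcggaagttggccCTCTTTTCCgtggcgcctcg
RPL29 (chr3:51995876-51995925, minus strand): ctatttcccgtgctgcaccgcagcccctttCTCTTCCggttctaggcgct
RPL35A (chr3:197950160-197950209, plus strand): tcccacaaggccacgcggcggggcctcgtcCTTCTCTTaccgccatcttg
RPS29 (chr14:49598691-49598740, minus strand): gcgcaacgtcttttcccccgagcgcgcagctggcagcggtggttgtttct
RPL9 (chr4:39458903-39458952, minus strand): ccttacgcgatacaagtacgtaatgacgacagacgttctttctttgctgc
In RPS29 and RPL9 the annotated start carried no such run, which says only that these letters are not at this position. A further annotated start of RPS19 carried none either. The table held promoters for 43 of the 50 genes, and 32 of them (74.4%) had at the annotated start a C followed by 4 bases that were each C or T, against 5.1% of 27305 genes in the table. On both strands of the 300 bases around the start, the ETS-like motif CCGGAAG was found in 32.6% of the members and 12.2% of all genes, the YY1-like motif GCCATNTT in 18.6% and 8.0%, and TATAAA in 7.0% and 14.0%. Each motif was counted by itself, so overlapping matches count for both.

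Of the 50 genes, 47 passed the filter, which asked for 2 or more arrays with log2 signals of 5 or higher, and were tested among 24721 clusters. The other 3 were the tissue-restricted paralogs RPL3L of heart and skeletal muscle and RPL10L and RPL39L, known from testis. RPL10L lay between 2.28 and 2.76, RPL39L between 3.56 and 3.82, and RPL3L between 4.44 and 4.66. None of these 3 reached the filter in any array, so no member entered the tests through the level of 1 group. The signal of a row depends on its probes as well as on its transcript, so levels of different genes are not compared.

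With siH19-2 most ribosomal protein mRNAs lay slightly above the control on the authors' scale, though not under spike-in scaling, and few of the differences passed the test. The median log2 fold change over all 50 genes was 0.20 on the authors' scale and 0.045 over all tested clusters. The members' median was thus 0.15 above that of all clusters, a gap that adding a constant per array cannot alter, and the family median itself turned to -0.13 when arrays were scaled to 8 spike-in rows, which moved the median of all clusters by -0.325. A log2 fold change above 0 was found for 43 of the 50 genes. Among the 47 tested members it was found for 40 (85.1%), against 55.4% of all tested clusters. Both siH19-2 arrays lay above both control arrays for 34 of the 47 tested members (72.3%; 32.7% of all tested clusters) and below them for 4 (8.51%; 28.2% of all). By limma with Benjamini-Hochberg adjustment over all tested clusters, 6 members were higher (10.2% of all tested clusters) and 2 were lower (10.8% of all) at an adjusted p under 0.05. That is 17.0% of the 47, and 21.0% of all tested clusters were called, so the share of called members was no larger than the background. At an unadjusted p under 0.05, 15 members were higher (18.3% of all tested clusters) and 3 lower (17.3% of all). The count of 8 rested on the filter, being 2 with none, and on the number of arrays. Every fit that left out 1 array called fewer members. This held for the siH19-1 arrays too, which do not enter the difference but share in the estimate of the spread. The median over the 50 genes stayed between 0.18 and 0.24 in the fits that left out 1 array. Calls over all tested clusters also fell in these fits, from 5203 to between 1285 and 3655. Under spike-in scaling 0 members were called higher and 4 lower, while the calls over all tested clusters rose from 5203 to 8398.

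**Figure D1:**
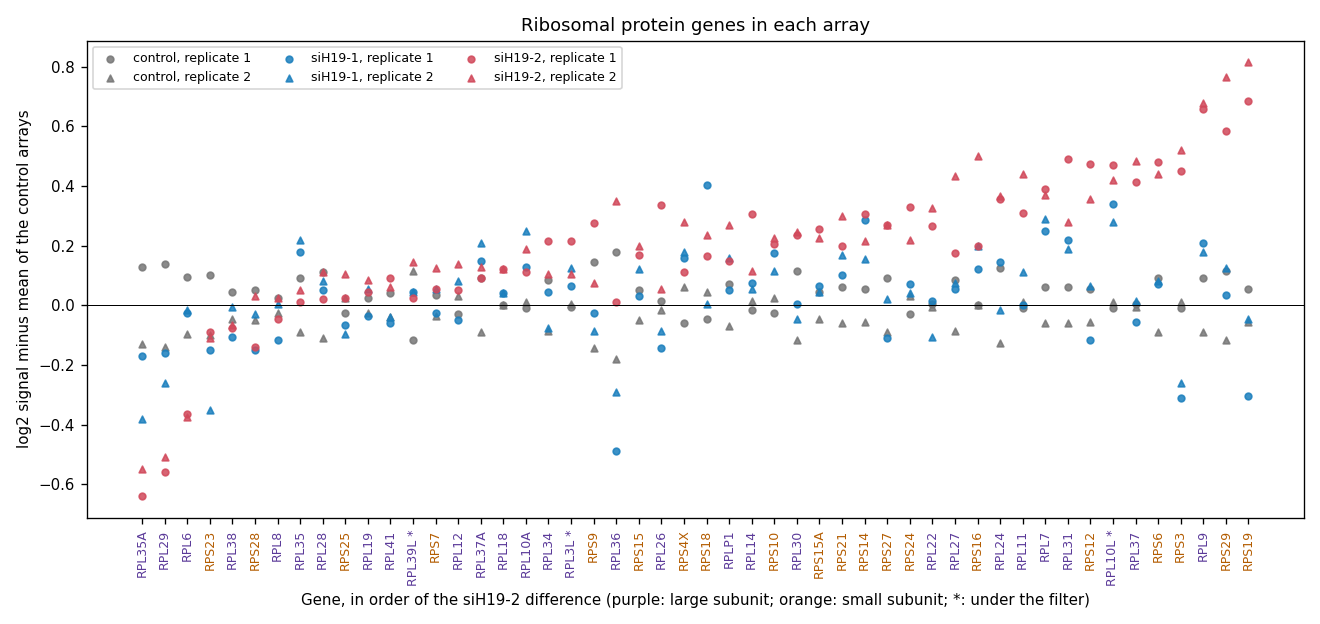
Each of the 50 genes is a column, ordered by its siH19-2 difference, and each point is 1 array's log2 signal minus the mean of the 2 control arrays (grey, control; blue, siH19-1; red, siH19-2; circles, replicate 1; triangles, replicate 2). On the authors' scale both siH19-2 arrays lie above both control arrays for 34 of the 47 tested genes, while spike-in scaling turned the family median to -0.13.

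The highest rise among members was that of RPS19, a small subunit protein needed to process the precursor of 18S RNA, whose gene is the one most often mutated in Diamond-Blackfan anaemia. Its log2 signal was 13.32 and 13.21 in the control arrays, 12.96 and 13.22 with siH19-1, and 13.95 and 14.08 with siH19-2. Both siH19-2 arrays lay above the other 4, which overlapped among themselves. The log2 fold change with siH19-2 was 0.75 (SE 0.14, limma adjusted p = 0.0170), a fold of 1.68.

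RPS29, a zinc-binding protein of the head of the small subunit that is also linked to Diamond-Blackfan anaemia, had log2 signals of 11.77 and 11.54 in the control arrays, 11.69 and 11.78 with siH19-1, and 12.24 and 12.42 with siH19-2. It was higher with siH19-2 by 0.675 (SE 0.14, limma adjusted p = 0.0227), again in arrays clear of the other 4. RPS3, which lines the channel where mRNA enters the small subunit, parted all 3 groups. Its signals were 12.14 and 12.16 in the control, 11.84 and 11.89 with siH19-1, and 12.60 and 12.67 with siH19-2, so that siH19-1 lay below and siH19-2 above the control. The siH19-2 log2 fold change of RPS3 was 0.485 (SE 0.10, limma adjusted p = 0.0276), whereas the siH19-1 value of -0.285 did not pass the test (adjusted p = 0.186). RPS6, the small subunit protein that S6 kinases phosphorylate downstream of mTOR, had signals of 8.05 and 7.87 in the control, 8.03 and 8.04 with siH19-1, and 8.44 and 8.40 with siH19-2. Its rise with siH19-2 was 0.46 (SE 0.11, limma adjusted p = 0.0345). All 4 small subunit genes that passed the test were higher on the authors' scale. With 1 array left out, the siH19-2 call was kept in 3 of 6 fits for RPS19, 1 for RPS29, 1 for RPS6 and 0 for RPS3.

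Among large subunit genes the calls went both ways. RPL9 had log2 signals of 9.25 and 9.07 in the control arrays, 9.37 and 9.34 with siH19-1, and 9.82 and 9.84 with siH19-2. The 3 groups did not overlap, with the control lowest, and the siH19-2 log2 fold change of RPL9 was 0.67 (SE 0.11, limma adjusted p = 0.0135), the smallest adjusted p of any member in this comparison. RPL37, a small zinc-binding protein of the large subunit, had signals of 9.37 and 9.36 in the control, 9.31 and 9.38 with siH19-1, and 9.78 and 9.85 with siH19-2. Here siH19-1 overlapped the control and siH19-2 stood above both, with a log2 fold change of 0.45 (SE 0.10, limma adjusted p = 0.0318). With 1 array left out, the siH19-2 call was kept in 4 of 6 fits for RPL9 and in 0 for RPL37.

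RPL29 and RPL35A were the members that fell. RPL35A, another Diamond-Blackfan gene of the large subunit, had log2 signals of 8.50 and 8.24 in the control arrays, 8.20 and 7.99 with siH19-1, and 7.73 and 7.82 with siH19-2. All 4 siH19 arrays lay below both control arrays, and the siH19-2 log2 fold change was -0.595 (SE 0.14, limma adjusted p = 0.0337). RPL29, which is also known as a heparin-binding protein, had signals of 10.23 and 9.95 in the control, 9.93 and 9.83 with siH19-1, and 9.53 and 9.58 with siH19-2. Its siH19-2 log2 fold change was -0.535 (SE 0.13, limma adjusted p = 0.0405), and its 4 siH19 arrays too lay below the control. The falls of these 2 genes with siH19-2 stayed negative under every scaling tried and in each fit that left out 1 array, with log2 fold changes from -0.92 to -0.465 for RPL35A and from -0.86 to -0.395 for RPL29. Of the 6 such fits, 1 kept the call for RPL35A and 1 for RPL29.

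**Figure D2:**
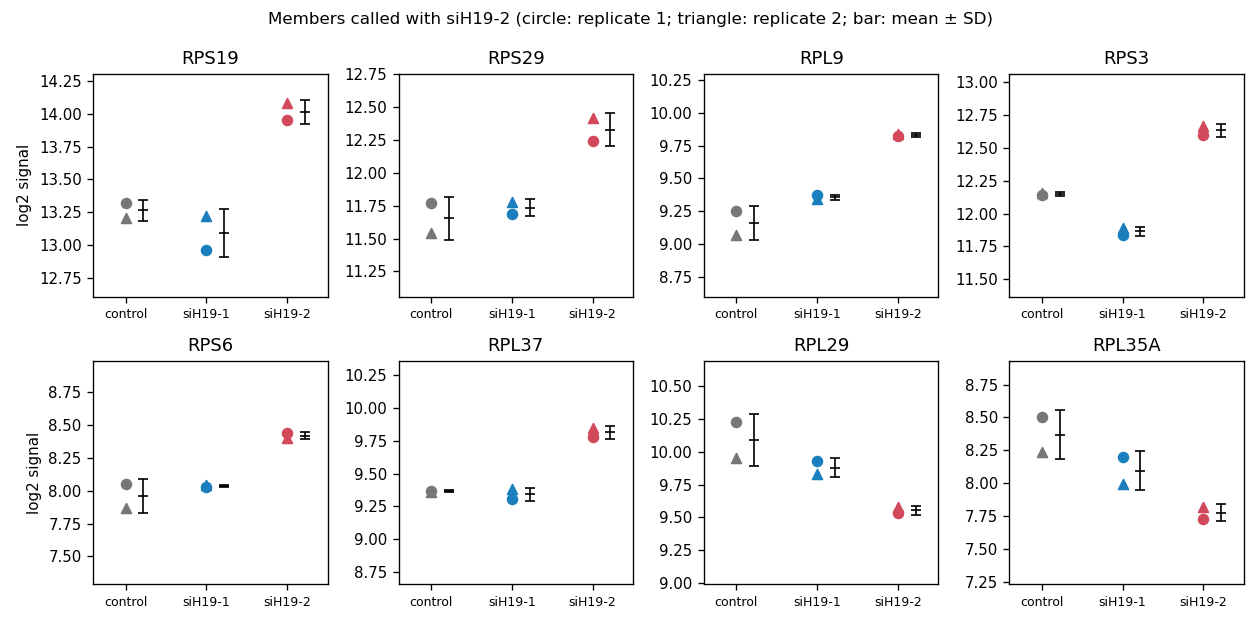
Log2 signal of the 8 members called with siH19-2 against control, 1 panel per gene with an axis of equal span (circles, replicate 1; triangles, replicate 2; bars, mean ± SD of 2 arrays). In 6 panels the siH19-2 arrays are the highest and in those of RPL29 and RPL35A the lowest; under spike-in scaling the rises of the 6 kept their sign but none passed the test.

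The rest of the family moved less. RPL7, a large subunit protein, had log2 signals of 11.54 and 11.42 in the control, 11.73 and 11.77 with siH19-1, and 11.87 and 11.85 with siH19-2, and both siRNAs lay above the control without overlap. Its log2 fold changes, 0.38 with siH19-2 (limma adjusted p = 0.0589) and 0.27 with siH19-1 (adjusted p = 0.219), missed the threshold. The first of them passed it with the replicate number as a block, without the intensity trend, and under 2 of the 4 other scalings. RPS14, whose loss underlies the anaemia of the 5q- syndrome, had signals of 7.01 and 6.90 in the control, 7.24 and 7.11 with siH19-1, and 7.26 and 7.17 with siH19-2. The siH19-2 log2 fold change of RPS14 was 0.26 (adjusted p = 0.139). RPL11, the partner of 5S RNA in MDM2 binding, had a siH19-2 value of 0.375 (limma adjusted p = 0.0673), and RPL31, near the exit tunnel, one of 0.385 (adjusted p = 0.0649). RPLP1, an acidic protein of the stalk that recruits elongation factors, had a siH19-2 value of 0.21 (adjusted p = 0.268). RPL6 was the lowest member after RPL35A and RPL29, at -0.37 (adjusted p = 0.0766), with signals of 11.94 and 11.75 in the control against 11.48 and 11.47 with siH19-2. With the replicate number as a block, RPL7, RPL11 and RPL31 were called higher as well, which made 11 called members. Calls over all tested clusters rose too in that fit, from 5203 to 6581, so the added calls are not particular to the family.

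With siH19-1 no ribosomal protein gene passed the test. Of the 47 tested members 0 were called by limma, against 6.22% of all tested clusters, and at an unadjusted p under 0.05 there was 1 member higher, RPL7 (9.4% of all tested clusters), and 1 lower, RPS3 (12.9% of all). The median log2 fold change over the 50 genes was 0.05, and -0.02 over all tested clusters. Relative to the control mean, the members' median was 0.0375 and 0.05 in the siH19-1 arrays and that of all tested clusters 0.015 and -0.055. The excess of 0.07 thus differed between the 2 arrays, and its own spread was not measured. The family median was -0.12 under spike-in scaling and -0.02 when arrays were scaled to rows that are not transcript clusters. It lay between -0.0175 and 0.07 when single arrays were left out. Both siH19-1 arrays lay above both control arrays for 14 members (22.2% of all tested clusters did so) and below them for 7 (27.3% of all). The widest fall was that of RPL36, with log2 signals of 12.34 and 11.98 in the control, 11.67 and 11.87 with siH19-1, and 12.17 and 12.51 with siH19-2. Its siH19-1 log2 fold change was -0.39 (SE 0.19, limma adjusted p = 0.298), and its siH19-2 arrays overlapped the control. RPS19 with siH19-1 stood at -0.175 (adjusted p = 0.532), RPL9 at 0.195 (adjusted p = 0.382), RPL35A at -0.275 (adjusted p = 0.318) and RPL29 at -0.21 (adjusted p = 0.432). A miss of the threshold with 2 arrays per group does not show that siH19-1 left these genes unaltered.

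**Figure D3:**
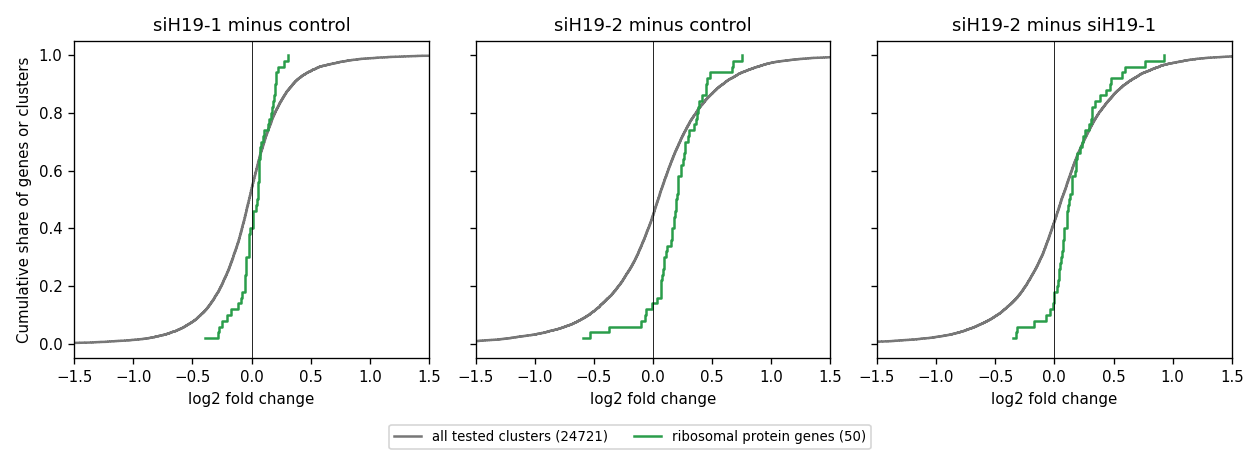
Cumulative share of the 50 ribosomal protein genes (green) and of all 24721 tested clusters (grey) by log2 fold change, for siH19-1 minus control, siH19-2 minus control and siH19-2 minus siH19-1. The green curve is displaced to the right by 0.15 at the median with siH19-2 and by 0.07 in the other panels, while spike-in scaling, which moves both curves together, puts the green medians below 0.

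Whether the siRNAs differed was tested directly, as siH19-2 minus siH19-1. Of the 47 tested members, 5 were higher with siH19-2 and 0 were lower, 10.6% of the members, where 18.2% of all tested clusters were called, 9.76% higher and 8.42% lower. The difference was 0.925 for RPS19 (SE 0.14, limma adjusted p = 0.0109), a fold of 1.90, and 0.77 for RPS3 (SE 0.10, adjusted p = 0.00919), a fold of 1.71. For RPS29 it was 0.595 (adjusted p = 0.0349), for RPL9 0.475 (adjusted p = 0.0380) and for RPL37 0.47 (adjusted p = 0.0306). In each of these 5 genes both siH19-2 arrays lay above both siH19-1 arrays. RPS6 missed the threshold at 0.385 (adjusted p = 0.0606) and passed it with the replicate block, and RPL36 had 0.57 (adjusted p = 0.0915). RPL29 and RPL35A, lowest with siH19-2, differed between the siRNAs by -0.325 (adjusted p = 0.151) and -0.32 (adjusted p = 0.168), and RPL6 by -0.35 (adjusted p = 0.0928). The 5 calls became 2 with no filter, 12 when arrays were scaled to rows that are not transcript clusters, and 2 higher with 1 lower under spike-in scaling. Over all tested clusters, 4495 calls became 2667, 5908 and 4700 in the same settings. They became 0 without any one of the siH19-1 or siH19-2 arrays and stayed at 5 without either control array. The arrays of siH19-2 lay above those of siH19-1 for 29 members (36.7% of all tested clusters did so) and below for 5 (27.0% of all).

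For the mean of both siRNAs against the control, RPL9 alone was called, at a log2 fold change of 0.43 (limma adjusted p = 0.0425), which is 2.13% of the members against 12.4% of all tested clusters called and 5.19% called higher. The RPL9 call was lost in each fit that left out 1 array. All 4 siH19 arrays lay above both control arrays for 12 members (12.2% of all tested clusters did so) and below them for 2, RPL29 and RPL35A (14.3% of all). Since both contrasts with the control share the same control arrays, their likeness is not given as a result.

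The small subunit stood higher relative to the large subunit with siH19-2 than in the control. Relative to the control mean on the authors' scale, the median small subunit gene was at 0.23 in each siH19-2 array and the median large subunit gene at 0.135 in each, with 0.05 and 0.025 for all tested clusters. In the siH19-1 arrays the small subunit median was 0.0325 and 0.05 and the large subunit median 0.0425 and 0.05, with 0.015 and -0.055 for all tested clusters. These subunit medians lay within the range of the control arrays, which was 0.05 and -0.05 for the small and 0.0525 and -0.0525 for the large subunit. The control values mirror each other because they are taken from their own mean. All tested clusters stood at 0.055 and -0.055 there, so that range is shared by the whole array. The mean log2 signal of the 30 large subunit genes minus that of the 20 small subunit genes is free of scaling between arrays, and only its change has a meaning. It was -1.36 and -1.38 in the control arrays, -1.36 and -1.36 with siH19-1, and -1.49 and -1.51 with siH19-2. The siH19-2 arrays therefore lay 0.129 below the control mean, a gap wider than the spread of any group, and between 0.117 and 0.141 when single arrays were left out. With siH19-1 the change was 0.0109, inside the spread. This spread is between arrays over the same genes and does not measure variation between genes. With siH19-2, 25 of the 30 large subunit genes were above 0, but their mean includes RPL35A (-0.595), RPL29 (-0.535) and RPL6 (-0.37). How far these genes set the gap was not tested. Over subunits, 4 of 20 small subunit genes (20%) rose and 0 fell with siH19-2, and 2 of 27 tested large subunit genes (7.41%) rose and 2 fell, where 10.2% of all tested clusters rose and 10.8% fell. Under spike-in scaling 0 genes of either subunit were called higher. No p is given for a score over members.

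**Figure D4:**
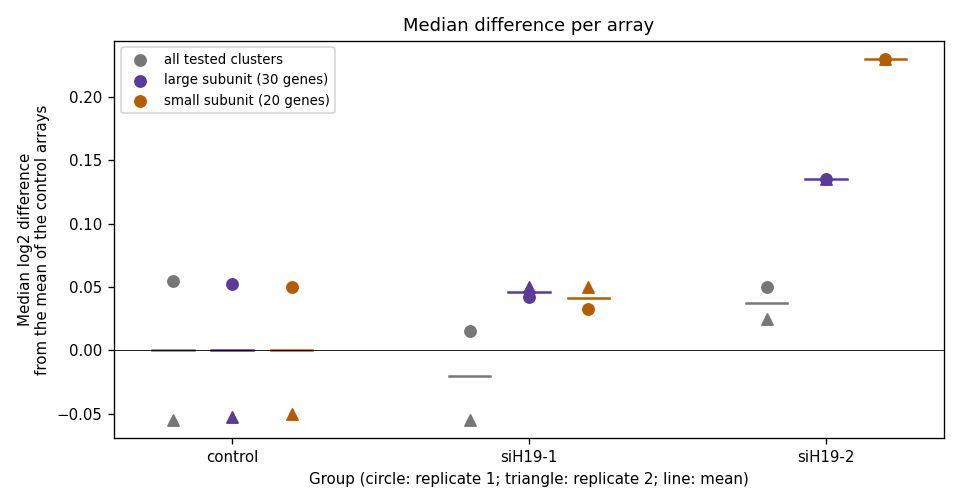
Median log2 difference from the mean of the control arrays, per array, over the 30 large subunit genes (purple), the 20 small subunit genes (orange) and all tested clusters (grey); circles are replicate 1, triangles replicate 2 and lines group means. Both siH19-2 arrays place the small subunit at 0.23 and the large subunit at 0.135 on the authors' scale, values that spike-in scaling moves below 0 while their order stays.

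Further lists lie within the family. Of 15 tested genes linked to Diamond-Blackfan anaemia, RPS19 and RPS29 rose and RPL35A fell with siH19-2, 3 of 15 where 21.0% of all tested clusters were called, and the median of the 15 was 0.24. The 4 measured proteins around the exit tunnel, RPL19, RPL26, RPL31 and RPL35, had 0 calls, against the same 21.0%, and a median of 0.13. Genes with a pyrimidine run at the annotated start, 32 of those tested, had a median siH19-2 log2 fold change of 0.205, ranging from -0.595 to 0.75, with 28 above 0. The 10 without it had a median of 0.17, ranging from -0.37 to 0.675, with 8 above 0. Of all tested clusters, 55.4% were above 0. This split follows the annotated start only, and whether the mRNAs of the 10 begin with the motif was not tested. Both ranges reach above and below 0, and RPS19 and RPL35A, at the ends of the first, both carry the run.

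Rows outside the member rule were read as well. The 22 rows that pair a ribosomal protein symbol with others had a median siH19-2 log2 fold change of 0.26, with 3 called higher and 0 lower (10.2% and 10.8% of all tested clusters). Ribosomal protein pseudogenes, processed copies whose probes can also bind the parent mRNA, had 41 rows of 1 symbol, of which 29 were tested, with a median of 0.26, 2 called higher and 0 lower against the same shares. How far such shared probes enter a member's own value was not tested. RPL30 and RPS18, named here after their values were seen, had further rows of their own. The RPL30 row of highest mean had a siH19-2 log2 fold change of 0.24 (limma adjusted p = 0.213) and its dimmer row one of 0.62 (adjusted p = 0.0183), so the rows of RPL30 differ in call. The RPS18 row used lay on an alternate haplotype and had 0.20, and 5 other rows of RPS18 held identical values with 0.39 (adjusted p = 0.0836). A further RPS18 row had 0.135 (adjusted p = 0.833), with control arrays at 10.42 and 9.25, so the rows of RPS18 differ in size.

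Other genes of translation, from lists written from general knowledge, were read beside the ribosomal proteins. Of 11 measured mRNAs with a TOP motif that encode no ribosomal protein, 3 rose and 0 fell with siH19-2. Of all tested clusters, 10.2% rose and 10.8% fell. The 3 were the initiation factor genes EIF4B (0.56, limma adjusted p = 0.0231) and EIF3E (0.445, adjusted p = 0.0355) and the histone chaperone gene NAP1L1 (0.41, adjusted p = 0.0481). The median of these 11 was 0.065, against 0.20 for the ribosomal proteins. Of 18 initiation factor genes, 1 rose and 7 fell with siH19-2, where 10.2% of all tested clusters rose and 10.8% fell, and their median was -0.34. This list leaves out 4 initiation factor genes counted with the TOP mRNAs, and with these 3 of 22 rose and 7 fell, with a median of -0.33. EIF2S2, the beta subunit of the factor that brings the initiator tRNA, had the widest fall, with log2 signals of 12.40 and 12.36 in the control, 12.46 and 12.47 with siH19-1 and 10.17 and 10.59 with siH19-2 (log2 fold change -2.0, adjusted p = 0.00306). EIF1AX, which helps to scan for the start codon, rose with both, by 1.85 with siH19-1 (adjusted p = 0.00755) and 1.81 with siH19-2 (adjusted p = 0.00280), and EIF5B, which joins the subunits, fell by 0.95 with siH19-1 (adjusted p = 0.0276) and by 1.11 with siH19-2 (adjusted p = 0.00780).

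Of 12 genes for chaperones and importers of ribosomal proteins and their regulator LARP1, 0 rose and 4 fell with siH19-2, where 10.2% of all tested clusters rose and 10.8% fell, with a median of -0.31. LARP1, the protein that binds the TOP motif, fell by 0.72 (limma adjusted p = 0.0291) and had a siH19-1 value of -0.55 (adjusted p = 0.113). TSR2, the chaperone that delivers RPS26, had a siH19-2 value of -0.565 (adjusted p = 0.0302), and PDCD2L, a relative of the RPS2 chaperone PDCD2, one of -0.79 (adjusted p = 0.00974). LTV1, an assembly factor of the small subunit, rose with siH19-1 by 0.565 (adjusted p = 0.0484) and fell with siH19-2 by 0.565 (adjusted p = 0.0232). Of 4 kinases of the S6 kinase and RSK family, RPS6KB1, which phosphorylates RPS6, rose with both siRNAs, by 0.915 with siH19-1 (adjusted p = 0.0164) and 0.90 with siH19-2 (adjusted p = 0.00684). With siH19-2, RPS6KB2 fell by 0.895 (adjusted p = 0.00615) and RPS6KA1 fell by 0.655 (adjusted p = 0.0130). That is 1 higher and 2 lower of 4 with siH19-2, against 10.2% and 10.8% of all tested clusters. Of 5 tested ribosomal protein relatives outside the rule, FAU, RPL7L1, RPL26L1, RPL36AL and RPS27L, 0 rose and 1 fell with siH19-2, against the same shares. The 1 was RPL36AL, an intronless copy of RPL36A, at -0.545 (adjusted p = 0.0490).

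**Figure D5:**
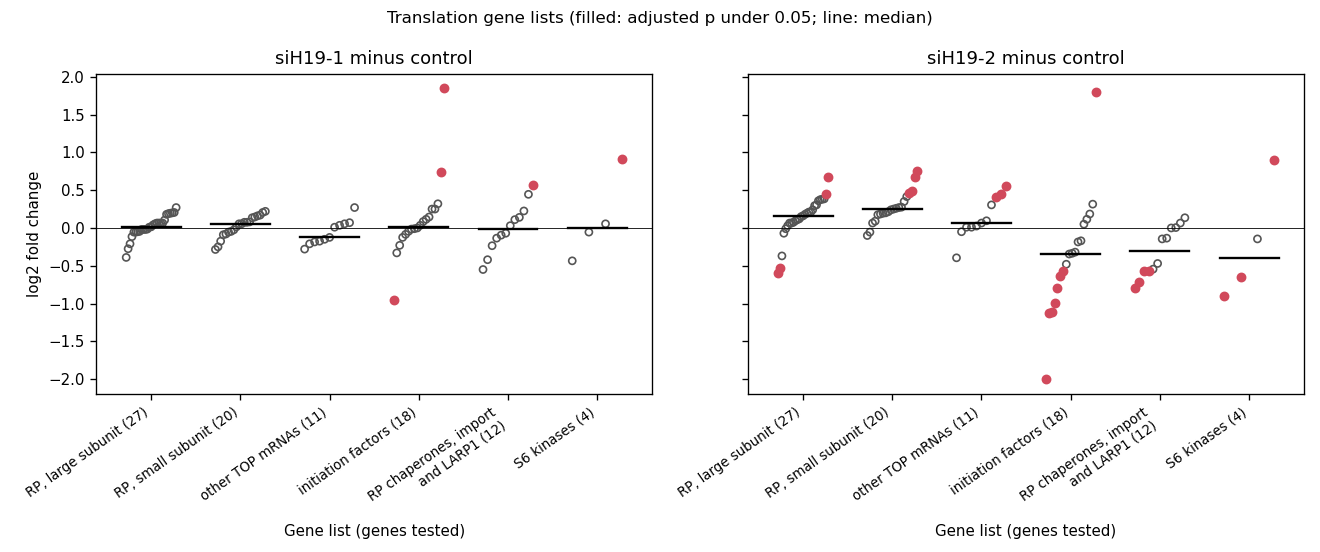
Log2 fold change of every tested gene of 6 translation lists with siH19-1 (left) and siH19-2 (right) on the authors' scale; red points have a limma adjusted p under 0.05, open points do not, and bars are list medians. With siH19-2 the ribosomal protein medians are above 0 and those of initiation factors (-0.34) and of the chaperone and importer list (-0.31) below it, while spike-in scaling puts the ribosomal protein medians below 0 too.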

How the data were processed

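RNA from 6 cultures of HCT116 was hybridised to whole-transcript arrays as biotin-labelled cDNA (Trizol, WT PLUS kit), per the labels' protocols. The authors deposited log2 signals made with Affymetrix Expression Console and RMA, per the submitters' processing notes. The sources used here name neither versions nor the genome build of the array. RMA brings arrays to a common distribution, so a shift shared by most transcripts would be largely removed. Groups and replicate numbers came from the sample titles.

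Transcript clusters made up 67528 of the 70523 rows and 2995 rows were of other kinds; 23781 clusters had 1 symbol in the platform annotation, 1543 several and 42204 none. The 24721 clusters that reached a log2 value of 5 on 2 or more arrays were fitted with limma 3.58.1 in R 4.3.3 (lmFit, eBayes with an intensity trend), with a coefficient per group over all 6 arrays. This left 3 residual and 2.75 prior degrees of freedom. Tests were two-sided, adjusted by Benjamini-Hochberg over all tested clusters per comparison, with a threshold of 0.05. An SE is from this fit. Medians over members include those under the filter. The number of arrays limits the precision, and p-values measure the spread between replicates the labels call biological. The fit was also run on simulated data, with independent arrays and changes larger than any seen among members. That run does not show how well changes of the members' size are recovered.

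Members and lists were chosen with earlier results of these data known. The text names the 4 marker genes, every called member, the 3 members with the largest rise and fall without overlap per comparison, members under the filter, RPL11 and the P-stalk genes, and some of the called list genes of smallest p. Other called list genes, EIF3I, EIF5, EIF4G1 and BCCIP among them, are not described. Deviations of same-numbered arrays from their group means correlated at 0.286 (control and siH19-1), 0.203 (control and siH19-2) and 0.198 (siH19-1 and siH19-2), so the numbers were taken to pair the samples. The main fit, which gave the reported SEs, p-values and counts, has no term for this pairing. The replicate block, which has one, was run beside it. Other alternatives were the filter, the scaling, the trend, the row per gene and leaving out each array. Spike-in scaling, the rows on alternate haplotypes, the rows of several symbols and the members that passed the filter were tried after seeing the data.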

Additional observations from a re-analysis of the deposited data

Results flagged for a closer look

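The direct comparison of the siRNAs called 5 ribosomal protein genes, all higher with siH19-2 than with siH19-1 on the log2 scale by limma: RPS19 by 0.925, RPS3 by 0.77, RPS29 by 0.595, RPL9 by 0.475 and RPL37 by 0.47. The differences of RPS19 and RPS3 passed the test in all 9 other settings that keep every array, those of RPS29 and RPL9 in 7 and that of RPL37 in 6. As given above, these calls were lost without any 1 array of siH19-1 or siH19-2. They held without a control array, which does not enter the difference itself.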

How the results depend on the processing

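The count of called members with siH19-2, 8 as reported, was 2 with no filter and 4 under spike-in scaling (0 higher), 0 to 4 when 1 array was left out, and within 1.5 times of 8 in the 9 other settings, among them 11 with the replicate block. For siH19-2 minus siH19-1, 5 called members became 2 with no filter, 12 under scaling to rows that are not transcript clusters and 3 under spike-in scaling, with 0 to 5 when 1 array was left out and 6 with the replicate block. For the mean of both siRNAs, 1 became 0 with no filter, 3 under median centring and under quantile normalization, 2 under scaling to rows that are not transcript clusters and 4 under spike-in scaling (0 higher), with 0 when 1 array was left out and 1 with the replicate block. With siH19-1 the count was 0 in every setting run.

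Scaling to 8 spike-in rows moved the median of all tested clusters by -0.17 with siH19-1, -0.325 with siH19-2, -0.155 between the siRNAs and -0.2475 for their mean. The median over members then became -0.12, -0.13, -0.025 and -0.12 in the same order, and the siH19-2 log2 fold changes of RPLP1 and RPS14 turned to -0.115 and -0.065. Scaling to rows that are not transcript clusters gave -0.02 with siH19-1, 0.28 with siH19-2 and 0.28 between the siRNAs, where it moved the median of all clusters by 0.15. Median centring gave 0.105 with siH19-1 and 0.06 between the siRNAs, and quantile normalization 0.086 between them. With 1 array left out, the median over members was 0.18 to 0.24 with siH19-2, -0.0175 to 0.0725 with siH19-1, 0.115 to 0.15 between the siRNAs and 0.094 to 0.16 for their mean. The large minus small subunit difference ranged from -0.141 to -0.117 with siH19-2, -0.147 to -0.132 between the siRNAs, -0.071 to -0.047 for the mean and -0.0013 to 0.023 with siH19-1. With siH19-1 it was -0.0024 over the members that passed the filter and with the filter at 6, and -0.0022 under quantile normalization. The cause of these changes was not tested. With no filter, more clusters enter both the fit and the adjustment.

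Over all tested clusters the calls fell with no filter from 3054 to 1489 for the mean, from 1537 to 607 with siH19-1, from 5203 to 3108 with siH19-2 and from 4495 to 2667 between the siRNAs, and rose under spike-in scaling to 6485, 2815, 8398 and 4700 in the same order. With the replicate block these calls rose to 4090, 2142, 6581 and 5983. Under scaling to rows that are not transcript clusters the calls between the siRNAs rose to 5908. With 1 array left out they ranged from 636 to 1772, from 0 to 770, from 1285 to 3655 and from 517 to 4760 in the same order, with 0 for siH19-1 without either siH19-1 array, so the background shares move with the arrays too. In a fit with 1 array left out, the lone array was assumed to vary like the other groups. The replicate block changed no other call of a named member than those given.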
